A study of Mus musculus with 4 samples.

Results

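The genes described here are 10 members of the BCL-2 family, followed in whole mouse ears inflamed by a contact allergen: the survival genes Bcl2, Bcl2l1, Bcl2l2, Mcl1, Bcl2a1a and Bcl2a1d, the BH3-only genes Bcl2l11, Bid and Bad, and the effector gene Bak1. Every non-control spot named after one of them was taken, whatever its value. This gave 14 probes for 9 of the 10 genes, among 55681 probes on the array, with 5 genes read by more than 1 probe. No spot carried the name Bcl2a1a. All 14 probes were well above background on all 4 arrays and so were among the 33664 probes tested.

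Proteins of the BCL-2 family set the point at which a stressed cell breaks its own mitochondria. The survival members hold the effectors BAK and BAX in check at the outer mitochondrial membrane. BH3-only members sense death signals and either engage the effectors or block the survival members, after which pores form, cytochrome c leaves the mitochondria and caspases are activated. Several survival genes of the family, Bcl2a1 and Bcl2l1 among them, are known targets of NF-kB, the transcription factor of which RelA is a subunit.

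The mutant mice were K14Cre RelAfl/fl, labelled RelAE-MUT, in which a Cre recombinase under the keratin 14 promoter acts on a floxed RelA allele, that promoter being active in basal keratinocytes. The wild-type mice were RelAfl/fl, so that both groups carried the floxed allele and the mutants alone the recombinase. Effects of the recombinase and of the deletion cannot be told apart. Each group had 2 mice, and the age of the mice was not given in the sources used here. All ears had been treated with 2,4-dinitrofluorobenzene (DNFB) and were collected after 48 h, and an ear without DNFB was not analysed here. Total RNA of each ear was read on 1 one-colour Agilent array, with 100 ng as input. The comparison asks whether inflamed ears express these genes differently when keratinocytes carry the deletion.

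The array medians of the processed intensity were 48.8 and 47.2 in mutant mice 1 and 2, against 54.6 and 48.8 in wild-type mice 1 and 2. The share of spots well above background ran from 61.21% to 64.27% over the arrays, with 0 saturated. The array of mutant mouse 2 stood apart: it correlated with the other 3 at Pearson's r between 0.9809 and 0.9857 across probes, against 0.992 to 0.9928 among those 3. A corner of it, 2411 spots, held dark spots, with 9.92% of the spots dark there that were bright on the other 3 arrays, against 0.65% elsewhere. Of the 14 probes 1 lay in that corner, a probe of Bcl2l11. The 9 keratinocyte markers were well above background on every array, with Krt5 at log2 8.69 and 8.85 in the mutants and 8.58 and 8.76 in wild type. Of the 9, 5 were higher and 4 lower in the mutants, and limma called 0. Both mutants were above both wild types for 3 (18.7% of all tested probes) and below for 3 (17.6%). The largest difference was at Krt15, with 5.03 and 5.28 in the mutants and 6.06 and 5.74 in wild type. Levels on the log2 scale are relative to the 75th percentile of the array. Markers of immune cells, melanocytes, fibroblasts and muscle were present too, so that values are those of a whole ear. In such tissue fewer cells of a type and less RNA per cell cannot be told apart. The probe of Rela, the targeted gene, stood at 4.59 and 4.72 in the mutants and 4.48 and 4.60 in wild type. Only its spot on the array of mutant mouse 2, which had the highest level, lies in the damaged corner. Which exons are deleted is not given in the sources used here, and a whole ear holds cells other than keratinocytes. The probe therefore does not check the genotype.

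Probe sequences show which part of a transcript was read, and 4 of the 14 are printed because they overlap stretches whose role in the protein is well known. Sequences are from the array files, positions are those of mouse build mm9 and all read 5′ to 3′.
Bcl2 A_51_P380013: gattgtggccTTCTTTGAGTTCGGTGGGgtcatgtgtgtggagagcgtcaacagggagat
Bcl2l1 A_52_P510877: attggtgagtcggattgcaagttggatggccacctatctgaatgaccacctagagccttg
Bcl2l11 A_51_P484880: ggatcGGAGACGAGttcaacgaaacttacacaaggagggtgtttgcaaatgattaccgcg
Bad A_65_P16603: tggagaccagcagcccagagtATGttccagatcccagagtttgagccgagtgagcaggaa
In Bcl2 the capitals mark codons at the end of the BH1 domain, which helps to form the groove that binds BH3 helices. The Bcl2l1 probe reads coding sequence of the long survival form BCL-XL that the short splice form BCL-XS lacks. In Bcl2l11 the capitals mark the core of the BH3 domain, the helix by which BIM binds its partners. In Bad they mark the methionine codon at which the shorter form of the protein begins. The probe of Bcl2 lies on chr1:108608970-108609029 (minus strand), and that of Bcl2l1 on chr2:152655185-152655244 (minus strand). The probe of Bcl2l11 spans chr2:127972893-127983988 (plus strand) and that of Bad chr19:7016918-7017403 (plus strand), both far longer than the 60 bases of the probe, so that each crosses at least 1 intron. The letters AATAAA, those of the polyadenylation signal, occur in the other probe of Bad, the other probe of Bcl2l1 and 1 of the 2 probes of Bcl2l2. No pair among the 14 probes shared a run of 15 bases.

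No probe of the BCL-2 family passed the test between mutant and wild-type ears. Limma, fitted over all tested probes with Benjamini-Hochberg adjustment, called 0 of the 14 probes at an adjusted p under 0.05, with the smallest adjusted p at 0.779, and 0 at an unadjusted p under 0.05. Over all 33664 probes the same rule called 7 (0.0208%), of which 4 were higher (0.0119%) and 3 lower (0.00891%) in the mutants. An unadjusted p under 0.05 was found for 2207 probes (6.56%), with 1198 of them lower in the mutants (3.56%). The log2 fold changes of the 14 probes, mutant minus wild type, lay between -0.40 for Bcl2a1d and 0.15 for a probe of Bcl2l2, with 9 above 0 and 5 below (35.7%, against 47.4% below 0 over all tested probes). Their median was 0.02, against 0.01 over all tested probes, and the median of their absolute values was 0.09, against 0.12. The groups did not overlap for 4 of 14 probes (28.6%), against 36.3% of all tested probes. Both mutants were above both wild types for 2 of them and below for 2, where the shares over all tested probes were 18.7% and 17.6%, so that these counts are near the background. The 95% interval of each of the 14 log2 fold changes held 0, and each lay within -1 and 1, the size of a 2-fold change. For 8 of them it lay within -0.5 and 0.5. Without mutant mouse 2, whose array stood apart, limma again called 0 of the 14 probes, their median was 0.05, and the log2 fold changes were -0.38 for Bcl2a1d and -0.42 for Bid. These intervals are unadjusted and rest on 2 mice a group, with a spread moderated over all probes.

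**Figure D1:**
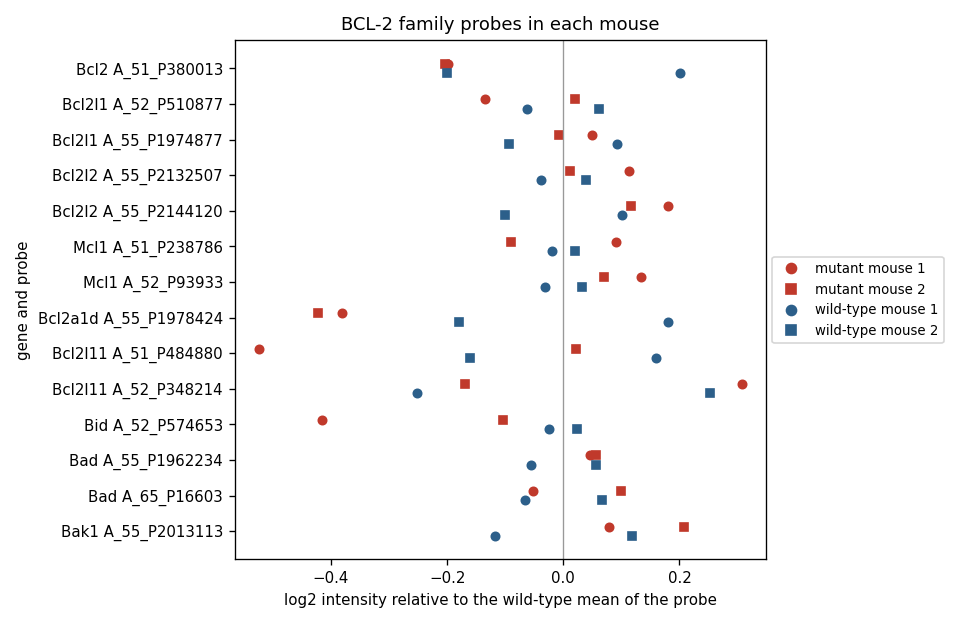
Log2 intensity of each BCL-2 family probe in each mouse, relative to the mean of the 2 wild-type mice for that probe (circles for mouse 1, squares for mouse 2 of a group). The mutant points lie on one side of both wild-type points for 4 of the 14 probes: Bcl2a1d and Bid below, 1 probe each of Bcl2l2 and Mcl1 above.

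Among the survival genes, Bcl2a1d had the largest absolute log2 fold change of the 14 probes with all 4 mice, though not without mutant mouse 2, when Bcl2l11 A_51_P484880 had -0.52 and Bid -0.42. It encodes A1, a short-lived survival protein of blood cells. Its probe A_55_P1978424, on chr9:88618165-88618224 (minus strand), had processed intensities of 4293 and 3966 in mutant mice 1 and 2, against 6790 and 4964 in wild-type mice 1 and 2. Both mutants were close to each other and below both wild types, of which mouse 1 was clearly the brighter. The log2 fold change was -0.40 ± 0.16 (SE, n = 2 mice per group), with a 95% interval from -0.83 to 0.02 and a limma adjusted p of 0.779 (unadjusted 0.0593). The 2 wild-type mice differed from each other by 0.36 on the log2 scale, nearly as much as the groups did. Of all tested probes, 10.9% had a larger absolute log2 fold change. Without wild-type mouse 1, the log2 fold change was -0.22. The mouse genome carries several near-identical Bcl2a1 copies, and which of them the probe binds besides Bcl2a1d was not tested.

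Bcl2a1c, another copy of the gene named here after its values were seen, had a similar pattern at its single probe. It stood at log2 -1.23 and -1.24 in the mutants, against -0.54 and -1.08 in wild type, with a log2 fold change of -0.43 ± 0.21 (limma adjusted p = 0.822). Again wild-type mouse 1 was the highest of the 4. Whether this probe and that of Bcl2a1d read the same RNA was not tested.

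Because A1 is made by blood cells, the marker lists of such cells are given beside it, as levels summed over the tested markers in multiples of the 75th percentile of the array. Macrophage and monocyte markers summed to 84.0 and 73.5 in the mutants and to 93.2 and 88.4 in wild type, with 7 of 8 lower. For 6 of the 8 both mutants were below both wild types, as for 17.6% of all tested probes. Over all tested probes 47.4% were lower, and limma called 0 markers in each of the lists given here. T cell markers summed to 17.3 and 19.7 in the mutants and to 23.2 and 19.7 in wild type, with 7 of 7 lower. For 3 of the 7 both mutants were below both wild types (17.6% of all tested probes). Mutant mouse 2 and wild-type mouse 2 had the same T cell sum, and wild-type mouse 1 was the highest. B cell markers summed to 0.555 and 0.612 in the mutants and to 0.698 and 0.728 in wild type, with 3 of 3 lower, 2 of them without overlap. Mast cell markers overlapped, at 34.8 and 36.5 in the mutants and 38.0 and 31.2 in wild type. Neutrophil markers summed to 489 and 477 in the mutants and to 247 and 283 in wild type, with 5 of 8 higher and 3 lower and a median log2 fold change of 0.15. Both mutants were above both wild types for 3 of the 8 (18.7% of all tested probes) and below for 1. S100a8 and S100a9, which keratinocytes also make, had log2 fold changes of 1.71 and 1.30. The other neutrophil markers lay between -0.14 for Mpo and 0.21 for Cxcr2. Every tested marker of these lists was above background on all 4 arrays, and 1 neutrophil and 2 B cell markers on the array were too dim to be tested. The part of these cells in the Bcl2a1d values was not tested.

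**Figure D2:**
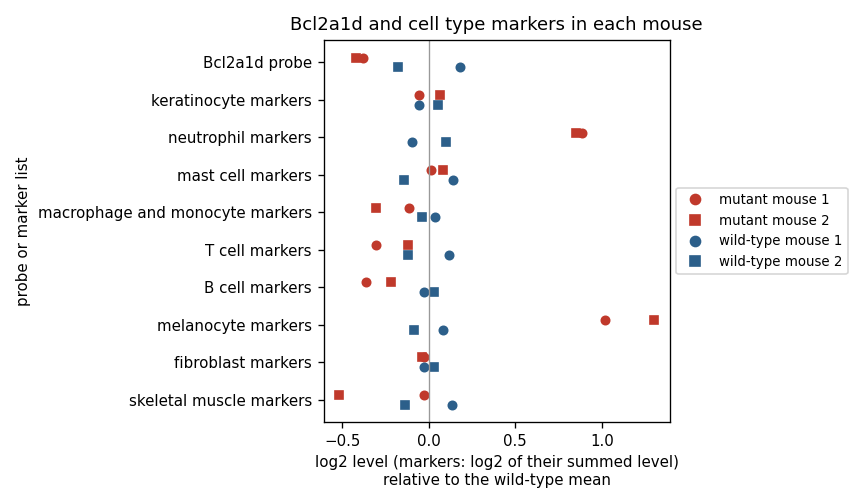
Log2 level of the Bcl2a1d probe and log2 of the summed level of each marker list in each mouse, relative to the mean of the 2 wild-type mice (circles for mouse 1, squares for mouse 2 of a group). Bcl2a1d and the macrophage and B cell sums are lower in both mutants than in both wild types, and the neutrophil and melanocyte sums higher. The neutrophil sum includes S100a8 and S100a9, which keratinocytes also make (log2 fold changes 1.71 and 1.30). The other neutrophil markers lay between -0.14 and 0.21.

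Bcl2, the founding survival gene, had intensities of 532 and 504 in the mutants and 751 and 534 in wild type. A single mouse, wild type 1, was bright, and the other three were level. The log2 fold change was -0.20 ± 0.17 (SE), and without wild-type mouse 1 it was -0.00060. Melanocytes and lymphocytes depend on Bcl2. Melanocyte markers were higher in both mutants than in both wild types for 5 of 5 genes (18.7% of all tested probes), with 0 past the limma threshold, and summed to 14.3 and 17.4 in the mutants and 7.48 and 6.67 in wild type. The T cell sum, like Bcl2, was highest in wild-type mouse 1. So were the macrophage and monocyte sum (93.2), the mast cell sum (38.0) and the skeletal muscle sum (157). The B cell sum was highest in wild-type mouse 2, at 0.728. The part of any of these cells in the Bcl2 values was not tested.

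Bcl2l1, which encodes BCL-X, was read by probes 48.7 kb apart on chromosome 2. The probe in the part that only the long form carries, printed above, had intensities of 173 and 183 in the mutants and 194 and 199 in wild type. These were lower in both mutants before scaling, but relative to the 75th percentile of each array the groups overlapped, at -1.84 and -1.69 in the mutants and -1.77 and -1.65 in wild type. The probe with AATAAA, A_55_P1974877, stood at 3.63 and 3.57 in the mutants and 3.67 and 3.49 in wild type on that log2 scale. The log2 fold changes were -0.06 ± 0.12 for the first and 0.02 ± 0.12 for the second, which differ by 0.08.

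Mcl1 encodes a survival protein with a rapid turnover that many cells of the skin need. Its probe A_51_P238786 had intensities of 16532 and 13867 in the mutants and 16405 and 15842 in wild type. Mutant mouse 1 was the highest and mutant mouse 2 the lowest, and the log2 fold change was 0.00 ± 0.12. The second probe, A_52_P93933, had 4410 and 4010 in the mutants and 4213 and 4134 in wild type. After scaling, both mutants were above both wild types at that probe, by a log2 fold change of 0.10 ± 0.11.

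Bcl2l2 encodes BCL-W, a survival protein of the same groove-bearing kind. Both its probes lie on chromosome 14. Probe A_55_P2132507 had intensities of 1376 and 1218 in the mutants and 1327 and 1315 in wild type. On the log2 scale A_55_P2144120 had -1.97 and -2.04 in the mutants and -2.05 and -2.25 in wild type. After scaling the groups overlapped at the first probe and not at the second, and the log2 fold changes were 0.06 ± 0.12 and 0.15 ± 0.13.

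Among the BH3-only genes, Bid and 1 probe of Bcl2l11 had the largest absolute log2 fold changes, -0.26 and -0.25 with all mice. The groups overlapped at that Bcl2l11 probe and not at Bid. BID is cut by caspase 8 downstream of death receptors and carries their signal to mitochondria. Its probe, on chr6:120843464-120843523 (minus strand), had intensities of 721 and 851 in mutant mice 1 and 2, against 1014 and 984 in wild type. Both mutants were below both wild types, and mutant mouse 1 was the lower. The log2 fold change was -0.26 ± 0.15 (SE), with a 95% interval from -0.66 to 0.13 and a limma adjusted p of 0.850. Without mutant mouse 1 it was -0.10, and that of the Bcl2l11 probe was 0.02. For Casp8, which encodes the caspase that cuts BID and is named here after its values were seen, log2 levels were 1.16 and 1.18 in the mutants and 1.28 and 1.28 in wild type (log2 fold change -0.11 ± 0.11).

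Bcl2l11 encodes BIM, which binds all the main survival proteins. At the probe that holds the BH3 core, intensities were 40.6 and 56.3 in the mutants and 69.9 and 52.6 in wild type, and the raw signal was 3.91 to 5.59 times the local background. Mutant mouse 1 was low and mutant mouse 2 lay between the 2 wild types. The spot of mutant mouse 2 is the one that lies in the damaged corner. The log2 fold change was -0.25 ± 0.23, and without mutant mouse 2 it was -0.52 (limma adjusted p between 0.769 and 1 over the alternatives). The other probe, A_52_P348214, assigned by the array design to another Bcl2l11 transcript, had 44.6 and 30.5 in the mutants and 32.4 and 43.2 in wild type, at 2.57 to 3.63 times the local background. There the groups overlapped fully, and the log2 fold change was 0.07 ± 0.25. At both probes the mice of a group differed by more than the groups did, by 0.32 to 0.55 on the log2 scale.

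Bad, whose protein binds survival members unless growth factor signals phosphorylate it, was read by a pair of probes. The probe with AATAAA, A_55_P1962234, had intensities of 7772 and 7440 in the mutants and 7753 and 7875 in wild type. The probe with the internal start codon had 437 and 461 in the mutants and 463 and 477 in wild type. Scaled to the 75th percentile, the groups overlapped at both, with log2 fold changes of 0.05 ± 0.11 and 0.02 ± 0.13. Bad lies on chromosome 19, as Rela does, 1.37 Mb from the probe of Rela.

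Bak1 encodes BAK, an effector that forms the mitochondrial pore. Its only probe, on chr17:27156807-27156866 (minus strand), had intensities of 5121 and 5320 in the mutants and 4785 and 5293 in wild type. The groups overlapped on the log2 scale, at 3.05 and 3.18 in the mutants and 2.85 and 3.09 in wild type. The log2 fold change was 0.14 ± 0.14 (SE).

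**Figure D3:**
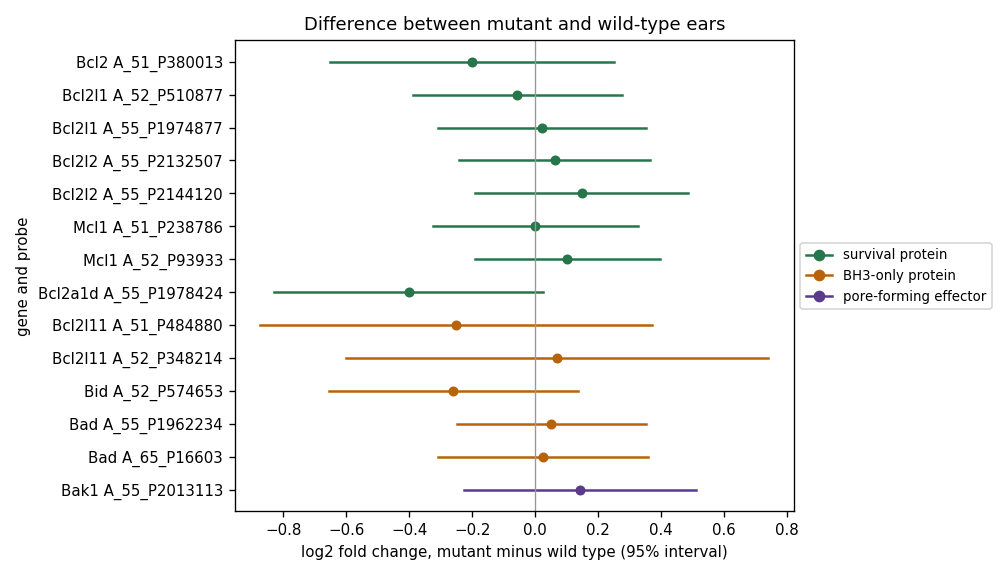
Log2 fold change of each BCL-2 family probe, mutant minus wild type, with its unadjusted 95% interval from limma (2 mice per group), coloured by the role of the protein. All 14 intervals cross 0, and those of the dim Bcl2l11 probes are the widest.

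By role, the medians of the survival and the BH3-only probes lay close to 0. Of 8 survival probes 5 were above 0 and 3 below, with a median of 0.01. Of 5 BH3-only probes 3 were above 0 and 2 below, with a median of 0.02. Whether these medians differ was not tested, since the members were chosen as a family. In the 5 genes with a pair of probes, the log2 fold changes of the pair differed by 0.03 for Bad to 0.32 for Bcl2l11.

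**Figure D4:**
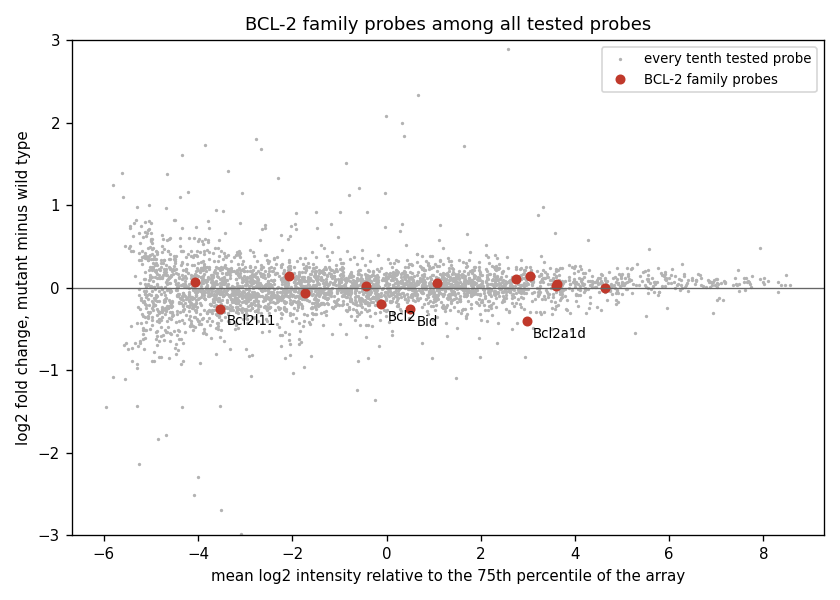
Log2 fold change, mutant minus wild type, against the mean log2 intensity of a probe, for the 14 BCL-2 family probes and a regular sample of 3355 tested probes (12 more lie beyond the axis). The members lie within the cloud of other probes, and Bcl2a1d stands lowest among them at a bright level.

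The wider BCL-2 family showed no call either. Of 22 names listed for further relatives and binding partners, 18 were on the array and 17 were tested, each at its brightest probe. Of these 17, 0 passed the limma threshold, with 11 above 0 and 6 below and a median log2 fold change of 0.02. Over all 27 tested probes of the list, 0 passed, 19 were above 0 and 8 below, and the median was 0.09. The groups did not overlap for 12 of the 27 (44.4%), against 36.3% of all tested probes. The largest differences were at Bcl2l14, Bcl2l10 and Bcl2l15. Bcl2l14, the gene of BCL-G, had log2 -0.42 and -3.62 in the mutants and 0.47 and 0.05 in wild type, a log2 fold change of -2.28 ± 1.08. The spot of mutant mouse 2 lies in the damaged corner. Its other probe, outside the corner, had -3.93 and -3.57 in the mutants and -2.83 and -3.55 in wild type. Bcl2l10 had -4.27 and -3.96 in the mutants and -3.58 and -3.58 in wild type (-0.54 ± 0.15, limma adjusted p = 0.661). Bcl2l15, a relative found in epithelia, had 2.92 and 2.99 in the mutants and 2.25 and 2.65 in wild type (0.50 ± 0.17, limma adjusted p = 0.732). Its other 2 probes were far dimmer. A_55_P1975873 had -3.041 and -3.265 in the mutants and -3.583 and -3.248 in wild type, where the groups overlapped (log2 fold change 0.26). A_55_P1975877 had -3.230 and -3.168 in the mutants and -3.449 and -4.043 in wild type (log2 fold change 0.55). For the effector Bax, named here after its values were seen, levels were 2.91 and 2.79 in the mutants and 2.50 and 2.60 in wild type (0.30 ± 0.12, limma adjusted p = 0.782).

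A further list held caspases, including Casp8 upstream of the mitochondria, their inhibitors and substrates, proteins released from mitochondria and the channels Vdac1, Vdac2 and Vdac3. Of its 22 genes 21 were tested, and 0 passed the limma threshold. At the brightest probe of each gene the log2 fold changes lay between -0.17 and 0.25, 14 above 0 and 7 below, with a median of 0.07. Over all 29 probes of the list they lay between -0.27 and 0.26, with a median of 0.05. Birc5, which encodes survivin, a protein of dividing cells, had 4.28 and 4.36 in the mutants and 3.80 and 4.33 in wild type, with wild-type mouse 1 alone low (0.25 ± 0.21). Apaf1, the scaffold of the apoptosome, had -1.21 and -1.55 in the mutants and -1.63 and -1.54 in wild type (0.20 ± 0.16). Casp6, an executioner caspase, had 1.74 and 1.67 in the mutants and 1.40 and 1.66 in wild type (0.18 ± 0.14).

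The NF-kB consensus motif, searched by its usual degenerate form on both strands, was found in 1 of the 14 promoter windows of the 10 genes in the RefSeq table (GRCm38.p6), each 250 bases before to 50 after a start. It occurs in 4.51% of the 32851 windows of that table. The match lies 242 to 233 bases before 1 of the 3 starts of Bcl2l1, at chr2:152830938-152830967 (minus strand) with its surroundings, and is printed with the motif in capitals.
Bcl2l1 promoter: tgtttgtgGGGGGTCTCCagcatacgcctc
A match is a run of letters, not a shown binding site, and longer distances were not searched.

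**Figure D5:**
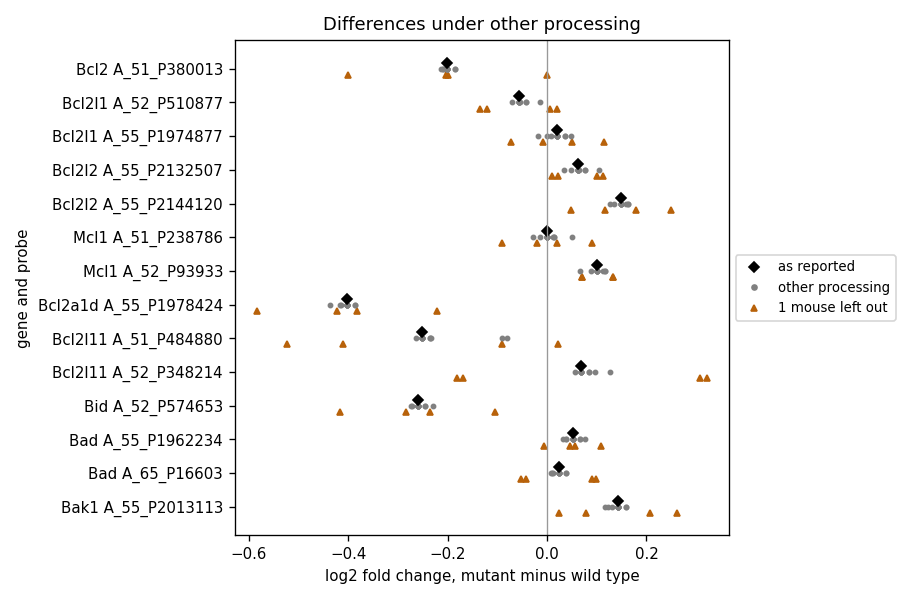
Log2 fold change of each BCL-2 family probe, mutant minus wild type, as reported (diamonds), under other processing (dots) and with 1 mouse left out (triangles). Bcl2a1d and Bid stay below 0 throughout, Bcl2 reaches -0.00060 without wild-type mouse 1, and for Bcl2a1d the values with 1 mouse left out, -0.58 to -0.22, spread wider than those under other processing, -0.44 to -0.39.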

How the data were processed

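RNA of 4 ears was hybridised to 1 array each. Spot intensity was deposited as Agilent Feature Extraction 10.7.3.1 gives it, per the file headers; the program subtracted a fitted background, corrected a multiplicative trend and set surrogates for dim spots, without scaling between arrays. Flags of 0 or 1 in the deposited files mark outliers, saturation and spots above background. In the matrix of the whole series the authors deposited the ratio of each processed intensity to the array median, which was found from 59305 spots (largest log2 difference 1.5e-05).

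Here the log2 processed intensity minus the 75th percentile of each array was used, without control spots and outlier flags, with spots of a probe averaged. A probe entered the test when 1 group or both had it well above background on each of its arrays. These probes were tested with limma 3.58.1 (lmFit, eBayes; R 4.3.3, data.table, version 1.17.8; python 3.11.15 and matplotlib 3.10.9 for figures), mutant minus wild type, two-sided, adjusted over all tested probes at 0.05. ± is the moderated standard error. The fit had 2 residual degrees of freedom, and an exact permutation of 2 against 2 mice cannot go below p = 0.33. The procedure was run on data simulated from its own fitted spread, with changes larger than those of the members. That run does not show how differences of the members' size fare. A dark block is one of 32 rows and 16 columns in which at least 5% of spots bright on the other arrays were dark. The damaged corner is the rectangle, taken to the array's edge, around the dark blocks of an array with more than 1. The array of wild-type mouse 2 had 1 dark block (5.8%), whose spots were not treated as damaged.

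Feature Extraction's own error of a member spot was 10.0% to 14.5% of its intensity, and with so few arrays the precision is low. The labels do not say what the replicate numbers mean, and same-numbered mice did not deviate together (r = -0.159 over probes, -0.231 without the damaged corner). Probe names and positions are those of the files. The members, the 2 further gene lists and the markers were chosen with earlier results of these data known. Named are all member probes, then the 3 genes with the largest difference in each list, and others as stated.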

Additional observations from a re-analysis of the deposited data

How the results depend on the processing

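Over 17 alternatives, of which the crossed pairing was chosen after seeing the data, limma called 0 of the BCL-2 family probes each time, with the lowest adjusted p at 0.635. Their median log2 fold change lay between -0.02 and 0.04 under other processing and between -0.01 and 0.05 with a mouse left out. Centring on the array median and use of the authors' deposited ratios are the same scaling and gave the same values, so they are not separate alternatives. The sign did not turn for 7 of 14 probes, but with a mouse left out their sizes moved: -0.401 to -0.000602 for Bcl2, whose difference was lost without wild-type mouse 1, -0.583 to -0.221 for Bcl2a1d, -0.416 to -0.104 for Bid, 0.0251 to 0.261 for Bak1, 0.0106 to 0.113 (A_55_P2132507) and 0.0474 to 0.249 (A_55_P2144120) for Bcl2l2, and 0.0697 to 0.133 for Mcl1 A_52_P93933. Mcl1 A_51_P238786 turned to -0.0291 with quantile normalization and to -0.0136 with the percentile taken from probes above background throughout, and Bcl2l1 to -0.0179 as the mean of its probes. With a mouse left out, ranges that crossed 0 were -0.134 to 0.0206 (A_52_P510877) and -0.0722 to 0.114 (A_55_P1974877) for Bcl2l1, -0.0898 to 0.0900 for Mcl1 A_51_P238786, -0.523 to 0.0221 (A_51_P484880) and -0.182 to 0.321 (A_52_P348214) for Bcl2l11, and -0.00525 to 0.108 (A_55_P1962234) and -0.0516 to 0.0992 (A_65_P16603) for Bad. The cause was not tested. With the damaged corner left out, the Bcl2l11 probe A_51_P484880 has no value.

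The count over all probes moved more, against 7 as reported: 1 with no filter on dim probes, 2 with probes above background on all 4 arrays, 4 with 1 probe a gene, 35 with eBayes trend and robust, 1 with the replicate block and 1 with the crossed one, and 0 to 162 with a mouse left out, the 162 without mutant mouse 1. The block changed no call of a BCL-2 family probe, and same-numbered mice share only a number. Without a mouse the lone one is assumed to vary like the others. The Bcl2l11 spots were 2.57 to 5.59 times the local background, which limits their values.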
